A study of Rattus norvegicus with 48 samples.

Results

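The microRNA miR-21 is cut from a hairpin precursor into a pair of mature strands, rno-miR-21-5p and rno-miR-21-3p, and both strands were followed over all 16 dose and time groups of a study of thioacetamide (TAA), a liver toxicant. The members were chosen by name: they are 2 of the 664 mature miRNAs with a read, and both passed the filter on low counts. The liver was taken from male Sprague-Dawley rats that had received TAA once daily at 4.5 mg/kg (low dose), 15 mg/kg (middle dose) or 45 mg/kg (high dose), or vehicle without TAA, 0 mg/kg (controls). Dosing lasted 3 days (3-d), 7 days (7-d), 14 days (14-d) or 28 days (28-d). Each of the 12 treatment conditions and each of the 4 control groups held 3 rats, with 1 small RNA library per rat and 48 libraries in all. The ages of the rats were not given in the sources used here. Rats of different time points may also differ in age at sampling, so that time of dosing and age cannot be told apart within a dose.

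A miRNA is made as a hairpin transcript, and the enzymes Drosha and Dicer trim it to a duplex of a pair of short strands. One strand of the duplex, the guide, is usually kept by an Argonaute protein and represses mRNAs that pair with its seed, and the other, the passenger, is usually degraded, so the guide is far more abundant. miR-21-5p is the guide of its duplex. It is among the most abundant miRNAs of liver, is expressed in hepatocytes, stellate cells and leukocytes, and is known for repressing the tumour suppressor Pdcd4. Its transcription is driven by STAT3, AP-1 and NF-kB, and its processing by Drosha is promoted by TGF-beta signaling.

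The sequences of the hairpin and both strands are shown because the comparison of the strands rests on them. They were taken from the RefSeq entry of Mir21 on the GRCr8 assembly, where the hairpin of 92 bases lies on the minus strand at chr10:71902600-71902691. The strands were matched by name, as were 598 of the 664 mature miRNAs. In the mature strands the capitals mark the seed (bases 2 to 8), and in the hairpin they mark both mature strands.
rno-miR-21-5p: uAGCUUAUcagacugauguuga
rno-miR-21-3p: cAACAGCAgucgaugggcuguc
Mir21 hairpin: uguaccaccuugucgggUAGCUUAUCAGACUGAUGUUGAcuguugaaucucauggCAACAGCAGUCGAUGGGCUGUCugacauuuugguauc

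miR-21-5p occupies chr10:71902653-71902674 and bases 18 to 39 of the hairpin, and miR-21-3p occupies chr10:71902615-71902636 and bases 56 to 77. The strands have different seeds, AGCUUAU and AACAGCA, and 0 other rat miRNAs among the 693 in the sequence table carry either. In the structure that RNAfold predicts for the hairpin, 19 of the 22 bases of each strand pair with the other strand. G or C make up 8 of the 22 bases of miR-21-5p and 13 of the 22 bases of miR-21-3p. The hairpin overlaps no other gene in the RefSeq annotation of GRCr8, and the protein-coding gene nearest to it is Vmp1. The count table lists each strand for 1 precursor, so neither count is shared with a paralog.

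The median library total was 10237542 counts, the largest 14906217, the smallest 293331 and the second smallest 4829217. The smallest library, control 3-d replicate 1, also stood apart in composition. The 4 red blood cell miRNAs (miR-451-5p, miR-486, miR-144-3p and miR-144-5p) made up 9.81% of its reads, against at most 0.879% of any other library, and the 4 hepatocyte miRNAs made up 12.6%, against 22.3% to 31.9%. None of these 8 miRNAs was at 0 in any library, and the liver miRNA miR-192-5p was the most abundant of all. Results at 3-d are therefore also given without this library, and its part in the other results is given where it changes a call or an order.

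miR-21-5p was the 6th most abundant of the 664 miRNAs by mean RPM (its reads scaled to a common library size of 1e+06 reads), at 41264 RPM, and made up between 2.12% and 6.18% of the reads of a library. miR-21-3p was the 99th, with a mean of 235 RPM. Its counts were between 444 and 8367 in 47 libraries, but only 14 reads were counted in control 3-d replicate 1. The median library held 201 reads of miR-21-5p for each read of miR-21-3p, and single libraries held between 76.1 and 445. This strand ratio is a ratio of reads within a library. It needs no normalization between libraries, but it is not a ratio of molecules, since sequences can differ in how well they are ligated and amplified.

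Levels are given below as RPM after upper quartile normalization (normalized RPM). Over the 16 groups, the level of miR-21-5p was highest at high dose 3-d, at 54444 ± 3983 normalized RPM (SD, n = 3), and lowest in the 3-d controls, at 26885 ± 8262. Every group overlapped the next in the order of miR-21-5p levels. The level of miR-21-3p was also highest at high dose 3-d, at 567 ± 281 normalized RPM (SD, n = 3). It was followed by middle dose 28-d at 415 ± 91.7 and high dose 7-d at 337 ± 60.3, and it was lowest in the 7-d controls at 91.7 ± 18.1 and the 3-d controls at 83.1 ± 39.4. Every group again overlapped the next. Without control 3-d replicate 1, the 3-d controls held 31547 ± 2472 normalized RPM of miR-21-5p and 105 ± 15.7 of miR-21-3p (SD, n = 2), and the 7-d controls became the lowest group for both strands. From the lowest to the highest group mean, miR-21-5p thus spanned a narrower range than miR-21-3p, as the plot of levels by group shows.

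**Figure D1:**
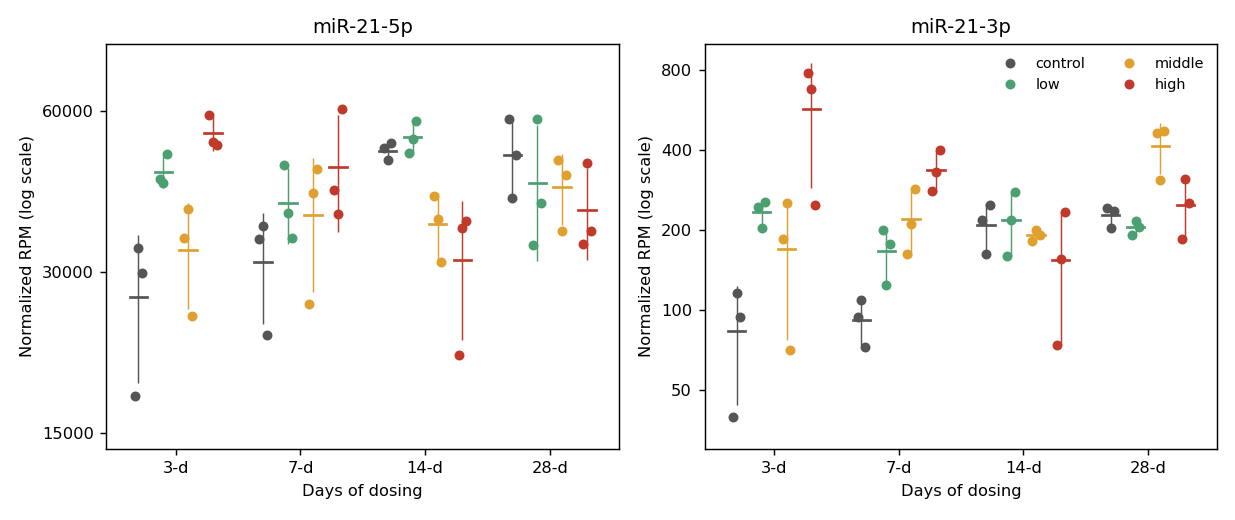
Normalized RPM (log axis) of miR-21-5p, left, and miR-21-3p, right, against days of dosing, with 1 point per rat, a horizontal bar at the group mean and a vertical line of 1 SD (n = 3), in grey for controls, green for low, orange for middle and red for high dose. The guide strand lies between 17561 and 60399 and the passenger strand between 39.5 and 776, with its highest values in high dose 3-d replicates 22 and 23.

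The passenger strand was higher than in the time-matched controls in 6 of the 12 treatment conditions and lower in 0. These 6 conditions met the rule for differentially expressed miRNAs (DEMs), an unadjusted p-value below 0.05 in edgeR's quasi-likelihood F-test and a fold change above 1.5, which 12.1% of all tests of the 301 miRNAs over the 12 conditions met in the higher direction and 5.98% in the lower. They were low dose 3-d, where 9.97% of the 301 miRNAs were higher DEMs, high dose 3-d (6.98%), low dose 7-d (18.3%), middle dose 7-d (12%), high dose 7-d (17.9%) and middle dose 28-d (20.9%). In each of the 6, all treated rats were above all controls, against 21.2% of all tests. In 4 of the 6, the 7-d conditions and middle dose 28-d, the Benjamini-Hochberg adjusted p-value over the 301 miRNAs was also below 0.05, which 7.7% of all tests reached with a higher DEM. In each of these counts the share of conditions was above the background.

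At 3-d, the normalized RPM of miR-21-3p was 39.5, 116 and 93.8 in the controls, 244, 204 and 254 in low dose rats, 184, 253 and 70.7 in middle dose rats, and 776, 678 and 248 in high dose rats. All low and high dose rats were above the controls, while middle dose replicate 12 lay between them. The log2 fold change was 1.46 ± 0.41 (SE) at low dose, 1.00 ± 0.59 for the middle dose and 2.74 ± 0.60 for the high dose, a 6.70-fold difference, where the medians of all 301 miRNAs were 0.16, 0.21 and 0.28. By fold change miR-21-3p was the 3rd highest of the 301 miRNAs at high dose 3-d and the 7th highest at low dose 3-d, and the 4th and 12th highest without control 3-d replicate 1. In edgeR's quasi-likelihood F-test 0 miRNAs reached an adjusted p-value below 0.05 at any dose of 3-d, although 52, 9 and 34 had an unadjusted p-value below it at low, middle and high dose, and DESeq2's Wald test called 46, 1 and 6 with adjustment. The adjusted edgeR p-value of miR-21-3p was 0.219 at low and 0.239 at high dose. With DESeq2's Wald test the adjusted p-value at high dose 3-d was 6.44e-04. With control 3-d replicate 1 left out, the edgeR log2 fold changes were 1.16, 0.69 and 2.43 at low, middle and high dose, with adjusted p-values of 0.00974, 0.994 and 0.125, and 13.3%, 1.99% and 7.31% of the 301 miRNAs were then higher DEMs.

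After upper quartile normalization, the high dose 3-d rats differed among themselves in the passenger strand but less in the guide. High dose replicates 22, 23 and 24 held 59025, 52504 and 51803 normalized RPM of miR-21-5p. Scaled by library size alone they held 61766, 58318 and 44506 RPM, so replicate 24 was then lower in the guide as well. Replicate 24, with 248 normalized RPM of miR-21-3p, had less than the other two.

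At 7-d, the normalized RPM of miR-21-3p was 94.3, 108 and 72.4 in the controls, 200, 123 and 177 in low dose rats, 162, 211 and 284 in middle dose rats, and 280, 331 and 400 in high dose rats. No treated rat overlapped the controls, and the group means rose from dose to dose, although low dose rats overlapped middle dose rats and middle dose rats overlapped high dose rats. The log2 fold change was 0.86 ± 0.21 (adjusted p = 0.0107) at low dose, 1.26 ± 0.22 (adjusted p = 0.00367) at middle dose and 1.88 ± 0.22 (adjusted p = 0.00304) at high dose, by edgeR's quasi-likelihood F-test. Among the 301 miRNAs it had the 27th, 13th and 8th highest fold change. The differences between doses at 7-d did not pass the test, with adjusted p-values of 0.468 for middle against low, 0.392 for high against middle and 0.0844 for high against low dose.

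At 14-d no dose passed the test for miR-21-3p. The normalized RPM was 217, 161 and 247 in the controls, 159, 218 and 277 for low dose, 182, 200 and 190 for middle dose, and 73.6, 155 and 233 for high dose, with every treated group overlapping the controls. The log2 fold changes were 0.06, -0.13 and -0.44, and the sign at low and middle dose depended on the scaling.

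At 28-d the passenger strand was higher at middle dose and not called at the low or high dose. The normalized RPM was 242, 204 and 234 in the controls, 191, 216 and 204 in low dose rats, 463, 309 and 472 in middle dose rats, and 185, 310 and 252 in high dose rats. All middle dose rats were above the controls, and the other groups overlapped them. The log2 fold change at middle dose was 0.87 ± 0.20 (adjusted p = 0.00843, edgeR), against -0.15 ± 0.19 at low (0.05 when scaled by library size alone) and 0.14 ± 0.20 at high dose. The middle dose differed from the low dose by 1.02 ± 0.37 (adjusted p = 0.0781) and the high from the middle dose by -0.74 ± 0.37 (adjusted p = 0.204), so neither difference between doses was called.

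The guide strand moved less, and in both directions. miR-21-5p was called higher in 3 conditions (low dose 3-d, high dose 3-d and high dose 7-d) and lower in 1 (high dose 14-d, where 3.65% of miRNAs were lower DEMs), against the 12.1% and 5.98% of all tests, and in 0 of the 12 did a DEM also have an adjusted p-value below 0.05. At 3-d, its normalized RPM was 17561, 33295 and 29799 in the controls and 44779, 43928 and 49840 at low dose. All low dose rats were above the controls, as were the high dose rats given above. At middle dose the values were 34738, 39378 and 24815, which overlap the controls. The log2 fold change was 0.78 ± 0.31 at low dose, 0.29 ± 0.39 for the middle dose and 1.02 ± 0.36 for the high dose, with adjusted p-values of 0.26, 0.907 and 0.4. They were 0.55 (adjusted p = 0.0133), 0.06 (0.994) and 0.79 (0.133) when control 3-d replicate 1 was left out, and the low dose no longer reached the fold change of 1.5. Neither the low nor the high dose was called when control 3-d replicate 3 was left out (0.86 with an adjusted p of 0.27 and 1.10 with an adjusted p of 0.317, by edgeR), and leaving out any 1 of the treated rats of either group also ended its call.

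At 7-d, miR-21-5p held 34491, 36519 and 22882 normalized RPM in the controls and 42574, 38546 and 60399 at high dose, which did not overlap. The log2 fold change at high dose was 0.59 ± 0.23 (adjusted p = 0.14), and it was 0.37 ± 0.18 at low and 0.29 ± 0.23 at middle dose, where rats overlapped the controls. The fold change at high dose was 1.51, next to the threshold of 1.5, and it was not called without control 7-d replicate 6 (0.41) or without high dose 7-d replicate 27 (0.37).

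At 14-d the guide strand was lower. Its normalized RPM was 51088, 48446 and 52180 in the controls, 49989, 53187 and 57331 in low dose rats, 41617, 37632 and 31350 in middle dose rats, and 21002, 36237 and 37289 in high dose rats. All middle and high dose rats were below the controls, whereas the low dose rats overlapped them. The log2 fold change was -0.46 ± 0.11 (adjusted p = 0.0108, which 8.31% of miRNAs also passed in this direction) at middle dose, a fold change that does not reach 1.5, and -0.68 ± 0.19 (adjusted p = 0.112) at high dose. Without high dose 14-d replicate 7 the latter was -0.46 (adjusted p = 0.0119), also under the fold threshold. Of all tests over the 12 conditions, 14.3% had all treated rats below the controls.

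At 28-d no dose passed the test for miR-21-5p. The normalized RPM was between 41225 and 58000 in the controls, between 33645 and 57858 at low dose, between 35804 and 48442 at middle dose and between 33813 and 47927 at high dose, and every treated group overlapped the controls. The log2 fold changes were -0.18, -0.20 and -0.34, of which the first and the second turned to 0.00 and 0.10 when libraries were scaled by size alone. At middle dose 28-d the passenger strand was thus higher while the guide strand was not.

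**Figure D2:**
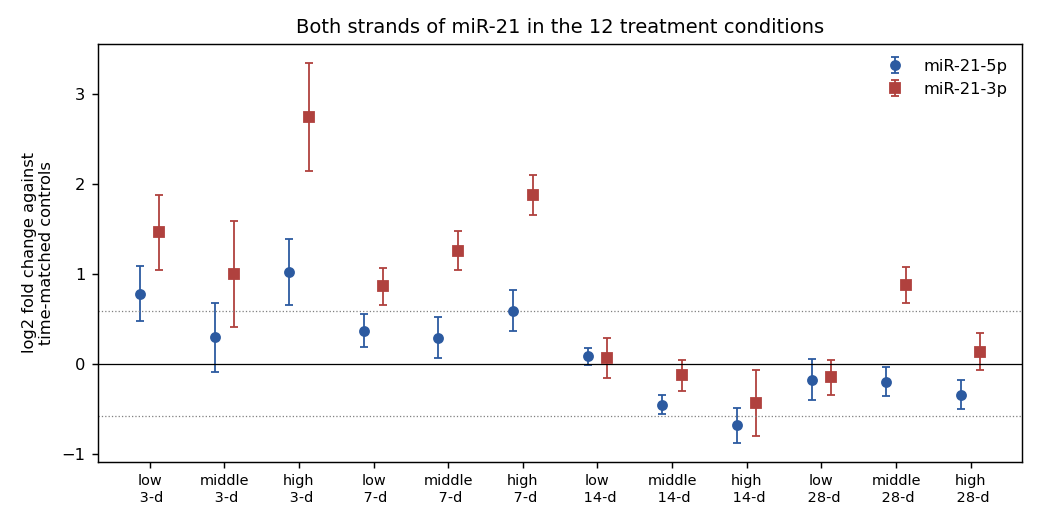
Log2 fold change against time-matched controls of miR-21-5p (blue circles) and miR-21-3p (red squares) in the 12 treatment conditions, with vertical lines of 1 SE and dotted lines at a fold change of 1.5 in each direction. The passenger strand lies furthest above the guide at high dose 3-d (2.74 and 1.02) and high dose 7-d (1.88 and 0.59). The guide lies below 0 at middle and high dose of 14-d and at every dose of 28-d. When libraries are scaled by size alone, low and middle dose 28-d turn above 0, the latter to 0.10.

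The strand ratio set the members against each other within each library. Over the 16 groups it was highest in the 3-d controls, with 350 ± 83.7 reads of miR-21-5p per read of miR-21-3p (SD, n = 3), and in the 7-d controls, with 339 ± 25.1. It was lowest at middle dose 28-d, with 106 ± 9.73, and at high dose 3-d, with 121 ± 76.4. The only neighbours in the order that did not overlap were the 7-d controls and low dose 14-d (255 ± 54.4). Without control 3-d replicate 1, the 3-d controls were at 302 ± 21.6 (SD, n = 2), below the 7-d controls, and all neighbours overlapped. In the 12 controls the ratio lay between 202 and 445 and in the 36 treated rats between 76.1 and 351. The value of 445 in control 3-d replicate 1 rests on 14 reads: miR-21-3p was 0.224% of the reads of both strands, with a 95% Wilson interval of 0.134% to 0.376%, which holds the 0.347% and 0.314% of the other 3-d controls. Such intervals cover counting error only.

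At 3-d, the reads of miR-21-5p per read of miR-21-3p numbered 445, 287 and 318 in the controls, 183, 216 and 196 in low dose rats, 188, 156 and 351 in middle dose rats, and 76.1, 77.5 and 209 in high dose rats. At 7-d they numbered 366, 337 and 316 in the controls, 238, 313 and 197 in low dose rats, 161, 199 and 164 in middle dose rats, and 152, 117 and 151 in high dose rats. The controls were above every treated rat of 7-d, by a narrow margin at low dose, and high dose rats were below every middle dose rat. At 28-d they numbered 240, 202 and 212 in the controls, 105, 116 and 96.5 at middle dose and 183, 155 and 142 at high dose, again without overlap with the controls. The low dose 28-d rats, at 176 to 267, overlapped the controls, as did all 3 doses at 14-d, where controls ranged from 211 to 300 and treated rats from 160 to 314.

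The ratio was lower without overlap in 7 of the 12 conditions and higher in 0, where 14.3% of the tests of all 99 precursors with both strands above the filter were lower and 19.4% were higher without overlap. In a limma fit of the log2 ratio over the 99 precursors, 4 of the 12 changes had an adjusted p-value below 0.05 and all 4 were lower, against 3.28% of all tests that were called lower and 7.24% called higher. Each change had an SE of 0.29. The log2 ratio changed by -1.66 (adjusted p = 1.03e-04) at high dose 3-d, where 6.06% of the precursors were called lower, and by -1.29 (adjusted p = 0.0067) at high dose 7-d, where miR-21 was the 1.01% called lower. It changed by -1.05 (adjusted p = 0.0191) at middle dose 28-d, with 2.02% called lower, and by -0.78 (adjusted p = 0.0245) at low dose 3-d, with 17.2%. A change of -1.66 means that miR-21-3p rose 3.17-fold relative to miR-21-5p. The change at middle dose 7-d was -0.96 (adjusted p = 0.09), and the other 7 lay between -0.64 and 0.03.

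When control 3-d replicate 1 was left out, the changes at 3-d were -1.49 (adjusted p = 0.00129) at high dose and -0.61 (adjusted p = 0.132) at low dose, so the call at low dose ended. The call at high dose 7-d ended without control 7-d replicate 4 (-1.23, adjusted p = 0.0542). At middle dose 28-d the change lay between -1.12 and -0.98 with any single rat left out, and the adjusted p-value passed 0.05 without control replicate 17 or 18 or without middle dose replicate 37 or 39, with a highest value of 0.0754. In separate fits of 6 libraries, the change at high dose 3-d had an adjusted p-value of 0.543.

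**Figure D3:**
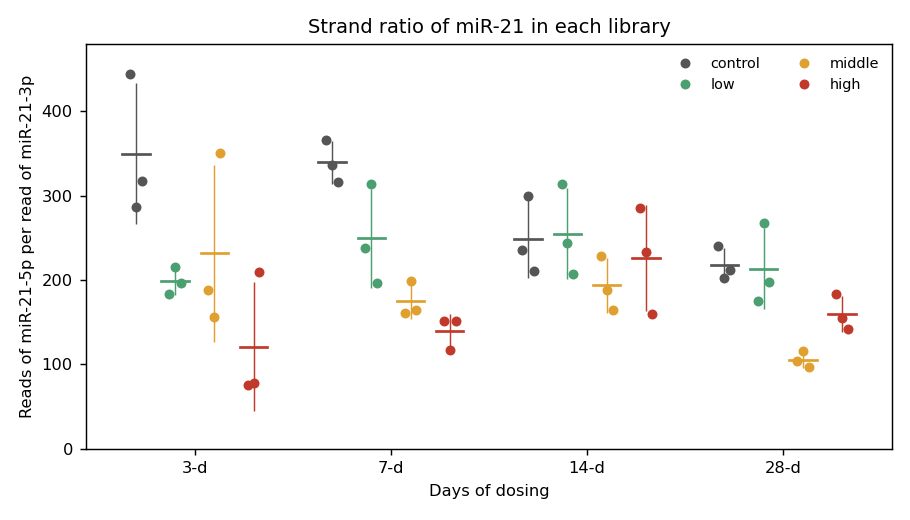
Reads of miR-21-5p per read of miR-21-3p (linear axis from 0) against days of dosing, with 1 point per rat, a horizontal bar at the group mean and a vertical line of 1 SD (n = 3), coloured by dose. The 7-d groups step down from 339 in the controls to 140 at high dose, the 14-d groups overlap, and middle dose 28-d is the lowest group at 106.

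Among the 99 precursors, the change of the miR-21 ratio was the lowest of all at high dose 7-d, the 2nd lowest at high dose 3-d and middle dose 7-d and the 3rd lowest at middle dose 28-d. Without control 3-d replicate 1 it was also the lowest of all at high dose 3-d. It lay near the middle, the 48th and 40th lowest, at low dose 14-d and low dose 28-d. The median change of the 99 ratios lay between -0.03 and 0.26, and the highest median was at low dose 3-d, so the precursors as a whole did not shift toward the 3p strand in the conditions where miR-21 did.

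**Figure D4:**
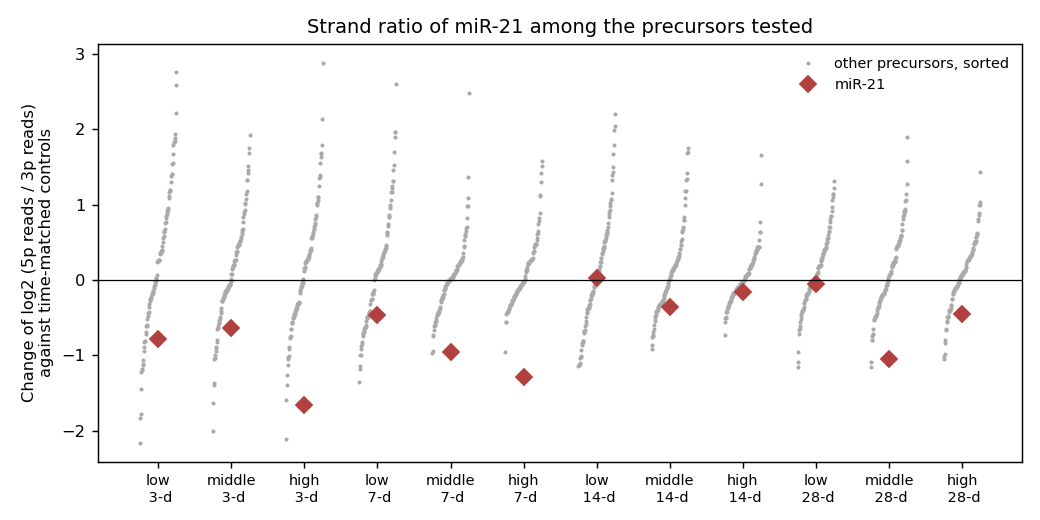
Change of the log2 ratio of 5p to 3p reads against time-matched controls in the 12 conditions, for miR-21 (red diamonds) and for the other precursors with both strands above the filter (grey points, sorted by value within a condition). miR-21 lies below all other precursors at high dose 7-d (-1.29) and near 0 at low dose 14-d (0.03).

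Each dose was also compared with the controls over all 4 time points, with an exact permutation test of 160000 arrangements within time points (2-sided, 12 treated against 12 control rats, 9 tests adjusted together). miR-21-3p was higher by 0.59 on the log2 scale at low dose (adjusted p = 0.0204), by 0.73 at middle dose (adjusted p = 0.0112) and by 1.04 at the high (adjusted p = 0.0206), each at 3 of 4 time points. The log2 strand ratio changed by -0.32 (adjusted p = 0.0255) at low dose, by -0.75 (adjusted p = 9e-04) at middle dose and by -0.89 (adjusted p = 9e-04) at high dose, and at middle and high dose it was lower at 4 of 4 time points. miR-21-5p did not pass the exact test at any dose, with differences of 0.27 (adjusted p = 0.0774), -0.02 (0.912) and 0.15 (0.545). The calls were the same with control 3-d replicate 1 left out, with adjusted p-values of 0.0306 to 0.0392 for miR-21-3p and 0.00281 to 0.0395 for the ratio.

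Differences between doses at a time point and between time points of a dose, each relative to its controls, were tested as 24 contrasts of a fit of all 48 libraries. Over all 301 miRNAs, 10.9% of the tests between doses and 2.93% of those between time points had an adjusted p-value below 0.05, and for miR-21-3p, 2 of 12 and 2 of 12 did. The high dose effect at 3-d exceeded the middle dose effect by 1.74 ± 0.38 (SE, adjusted p = 0.0153), in a contrast where 0.332% of the miRNAs were called, and the low dose effect by 1.28 ± 0.38 (adjusted p = 0.0202), where 13.6% were. The high dose effect fell by 2.31 ± 0.53 from 7-d to 14-d (adjusted p = 0.00427, 7.31% called) and by 2.55 ± 0.54 from 3-d to 28-d (adjusted p = 0.00311, 8.64% called). Without high dose 3-d replicate 22 or 23 only 2 of the 24 contrasts were called.

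For miR-21-5p, 3 of the 24 contrasts were called. The high dose effect fell by 1.27 ± 0.34 from 7-d to 14-d (adjusted p = 0.0141) and by 1.36 ± 0.34 from 3-d to 28-d (adjusted p = 0.0148), and the high dose effect at 14-d differed from the low dose effect by -0.76 ± 0.24 (adjusted p = 0.0241, 19.3% called). Without high dose 14-d replicate 7, 1 contrast was called. For the strand ratio, limma called 0 of the 24, against 10% and 0.926% of all tests between doses and between time points, although 7 had an unadjusted p-value below 0.05. The nearest were high against middle dose (-1.02 ± 0.29, adjusted p = 0.0511) and high against low dose (-0.88 ± 0.29, adjusted p = 0.0536) at 3-d, where 1.01% and 6.06% of the precursors were called. With control 3-d replicate 1 or high dose 3-d replicate 24 left out, 4 and 5 contrasts of the ratio were called.

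The controls themselves also changed over time, and the part of this in the differences in effect over time was not tested. At high dose the mean of miR-21-3p was 337 normalized RPM at 7-d and 154 at 14-d, against 91.7 and 209 in the controls. In the 6 controls of 3-d and 7-d, miR-21-5p lay between 17561 and 36519 normalized RPM and miR-21-3p between 39.5 and 116. In the 6 controls of 14-d and 28-d they lay between 41225 and 58000 and between 161 and 247, without overlap for either strand. The share of all miRNAs that separated the earlier from the later controls was not counted, so this separation cannot be called particular to miR-21. The strand ratio was 287 to 445 in the earlier and 202 to 300 in the later controls, which overlapped. Against the 7-d controls, the 28-d controls differed by 0.67 ± 0.24 (adjusted p = 0.0979) in miR-21-5p and by 1.30 ± 0.38 (adjusted p = 0.0294) in miR-21-3p by edgeR, where 5.98% of miRNAs were called, in a comparison added after the data were seen. The 14-d controls differed from the 7-d controls by 0.69 ± 0.24 (adjusted p = 0.199) and 1.19 ± 0.38 (adjusted p = 0.117), which was not called, as for all but 0.664% of miRNAs. Against the 3-d controls, the 28-d controls differed by 0.88 (adjusted p = 0.00438) and 1.36 (adjusted p = 0.00567) by edgeR, where 39.5% of miRNAs were called. When control 3-d replicate 1 was left out, this difference of 28-d from 3-d became 0.65 (adjusted p = 0.0643) and 1.11 (adjusted p = 0.052), with 18.6% called. The difference of the 28-d from the 7-d controls became 0.67 (adjusted p = 0.04) and 1.30 (adjusted p = 0.0116), with 12.6% called. When all 12 controls were pooled, miR-21-3p was called in 3 conditions and miR-21-5p in 0.

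Markers of other liver cells were measured beside these results, since in whole liver a change in the share of a cell type and a change in the level per cell cannot be told apart. The 7 leukocyte miRNAs summed to 5510 to 6746 normalized RPM at high dose 3-d and to 3228 to 5210 in its controls (3913 to 5210 without control 3-d replicate 1), and 3 of the 7 were called higher: miR-155-5p (2.47), miR-146b-5p (1.65) and miR-142-3p (1.26, all log2 fold changes), where 6.98% of all miRNAs were. Without control 3-d replicate 1 the same 3 were called, at 2.14, 1.27 and 0.91. The endothelial pair miR-126a-5p and miR-126a-3p summed to 22404 to 27872 there, against 6827 to 20809 in the controls and 19587 to 20809 without that library, and 0 of the 2 were called. The bile duct and epithelial sum at high dose 3-d overlapped the controls. Without control 3-d replicate 1 it was lower, at 494 to 733 against 1249 to 1406. Then 3 of the 5 were called lower, where 1.66% of all miRNAs were (1 of 5 and 4.32% with that library). Of all miRNAs, 17.6% had all high dose 3-d rats above all controls and 4.32% had all below. At low dose 3-d the hepatocyte sum was higher, at 290107 to 312490 against 103835 to 228372. So were the stellate cell and smooth muscle sum (49732 to 53071 against 19452 to 48120) and the endothelial sum (23395 to 26780). Of these miRNAs 0 were called higher, and 28.6% of all miRNAs had all low dose 3-d rats above the controls. Without control 3-d replicate 1 the bile duct and epithelial sum was lower there, at 738 to 1112. The part of these cell types in the miR-21 results at 3-d was not tested. In the 3 conditions of 7-d and at middle dose 28-d, where miR-21-3p had an adjusted p-value below 0.05, the leukocyte sums overlapped the controls, and 2 of the 7 were called higher at low dose 7-d (and 2 lower), 0 at middle dose 7-d, 2 at high dose 7-d and 1 at middle dose 28-d. The sums ranged from 4675 to 5032 and from 5003 to 5285 at middle and high dose 7-d against 4112 to 5266, and from 6210 to 7259 at middle dose 28-d against 5557 to 6850.

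Other cell type sums lay apart from the controls in those 4 conditions, but single miRNAs often did so too. At low dose 7-d, 30.2% of the 301 miRNAs had all treated rats above the controls and 22.9% had all below. The share with all treated rats below was 21.9% at middle dose 7-d, 12.6% at high dose 7-d and 19.6% at middle dose 28-d. At low dose 7-d the hepatocyte sum was higher, at 296612 to 355005 against 213537 to 242876, with 1 of the 4 called higher and 0 lower. That sum is mostly miR-192-5p, with a mean of 213133 normalized RPM over the 48 libraries. The bile duct and epithelial sum was lower there, at 395 to 492 against 1007 to 1086, with 2 of the 5 called lower and 0 higher. It was also lower at high dose 7-d, at 403 to 845, with 2 called lower and 1 higher. Of all miRNAs, 18.3% were called higher and 10.6% lower at low dose 7-d, and 17.9% and 3.32% at high dose 7-d. The endothelial sum was lower at middle dose 28-d, at 20839 to 27210 against 28159 to 32448, with 0 of the 2 called. The summed level of the 6 stellate cell and smooth muscle miRNAs was lower at middle dose 7-d, at 30873 to 39055 against 40967 to 46284, but 1 of the 6 was called higher and 0 lower there. That sum overlapped the controls in the other 3 conditions, where 0, 2 and 2 were called higher and 2, 0 and 0 lower at low dose 7-d, high dose 7-d and middle dose 28-d. Red blood cell miRNAs summed lower at middle dose 7-d (1664 to 1928 against 3815 to 6241) and at high dose 7-d (786 to 3416). In each, 3 of the 4 were called lower, where 3.99% and 3.32% of all miRNAs were. Sums also lay apart at 14-d, where miR-21-5p was lower at middle and high dose. At middle dose 14-d the stellate cell and smooth muscle sum was lower (30948 to 35013 against 44061 to 45002). So were the endothelial sum (20210 to 22037 against 24133 to 26051) and the red blood cell sum (2074 to 3138 against 4042 to 5331). There, 17.6% of all miRNAs had all treated rats below the controls. At high dose 14-d the hepatocyte sum was lower (203869 to 230721 against 239522 to 277207). The stellate cell and smooth muscle sum overlapped the controls there, but 3 of the 6 were called lower, where 3.65% of all miRNAs were. At low dose 14-d, where miR-21-5p overlapped the controls, the endothelial sum was lower too (21334 to 22578). The part of these cell types in the miR-21 results was not tested. None of the marker miRNAs of these lists was at 0 in every library, and 1 leukocyte miRNA was at 0 in a library.

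Over the 12 conditions, the median log2 fold change of all tested miRNAs was 0.06, and 12.1% of all tests were called higher and 5.98% lower. Hepatocyte miRNAs were called higher in 2 and lower in 6 of 48 tests and had a median of -0.06, leukocyte miRNAs in 10 and 6 of 84 (0.01), stellate cell and smooth muscle miRNAs in 6 and 8 of 72 (-0.05), endothelial miRNAs in 0 and 0 of 24 (-0.04), bile duct and epithelial miRNAs in 5 and 8 of 60 (-0.09) and red blood cell miRNAs in 1 and 20 of 48 (-0.59).

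The other miRNAs of the pathways that act on miR-21 were described by lists of their own. Like the cell type lists, these were chosen with earlier results of these data known, so their counts beside those of all tests are descriptive. The 8 miRNAs known to be raised by TGF-beta, STAT3 or NF-kB, without miR-21, were called higher in 20 and lower in 2 of 96 tests, against 12.1% and 5.98% of all tests, with a median log2 fold change of 0.22. In the 6 conditions where miR-21-3p was called, 0 of the 8 were called higher at low dose 3-d (9.97% of all miRNAs), 2 at high dose 3-d (6.98%), 3 at low dose 7-d (18.3%), 1 at middle dose 7-d (12%), 5 at high dose 7-d (17.9%) and 3 at middle dose 28-d (20.9%). Where miR-21-3p was not called, 2 were called higher at low dose 14-d and 2 at middle dose 14-d, 1 at high dose 14-d and 1 at high dose 28-d, and 0 at middle dose 3-d and low dose 28-d. Without control 3-d replicate 1, 2 were called higher at low dose 3-d and 2 at high dose 3-d. At high dose 7-d they were miR-155-5p (1.30), miR-146b-5p (1.30), miR-9a-5p (1.14), miR-214-3p (0.94) and miR-199a-5p (0.69), of which miR-155-5p and miR-146b-5p had adjusted p-values below 0.05 (0.00742 and 0.04, edgeR). miR-146b-5p and miR-155-5p are also on the leukocyte list, and miR-199a-5p and miR-214-3p on the stellate cell list.

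The 8 miRNAs that TGF-beta is known to repress, members of the miR-200 and miR-29 families, were called higher in 7 and lower in 14 of 96 tests (median -0.13), against 12.1% and 5.98% of all tests. Of the miR-200 family, which maintains the epithelial state, miR-429 (-1.63) and miR-200b-3p (-1.50) changed most at low dose 7-d, where both had adjusted p-values below 0.05 (8e-05 and 2.1e-04, edgeR). Other members went the other way: miR-200c-3p was called higher at low dose 14-d (1.14), middle dose 14-d (0.92), middle dose 28-d (1.09) and high dose 7-d (0.91), and miR-200a-3p at low dose 14-d (0.66). The miR-29 family was split as well. miR-29b-3p was called higher at high dose 3-d (1.27) and high dose 7-d (0.71). miR-29a-3p was called lower at low dose 7-d (-0.96), low dose 14-d (-0.90), high dose 14-d (-0.72) and high dose 28-d (-0.74). miR-29c-3p was called lower at high dose 14-d (-0.59) and high dose 28-d (-0.79). Of 15 oncogenic miRNAs of liver cancer other than miR-21, 14 were tested (all but miR-224-5p), with 11 higher and 6 lower calls in 168 tests (median 0.19), both below the 12.1% and 5.98% of all tests. In control 3-d replicate 1 this list took 12.8% of reads, against at most 3.66% in any other library.

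Across the 48 libraries, which share the normalization and include replicates of the same groups, the miRNA whose level was most like that of miR-21-5p was its own passenger strand, with a Pearson r of 0.77 on log2 (normalized RPM + 1). It was followed by miR-192-5p (0.68), miR-872-5p (0.65), miR-101a-3p (0.63) and miR-199a-3p (0.63). For miR-21-3p the order was different: miR-19a-5p (0.83) and the leukocyte miRNA miR-142-3p (0.79) came first, miR-29b-3p and miR-21-5p were level at 0.77, and miR-466b-4-3p (0.75) followed. The lower places rest on control 3-d replicate 1. Without it, the order for miR-21-5p was miR-21-3p (0.71), miR-872-5p (0.60), miR-101a-3p (0.58), miR-192-5p (0.58) and miR-30a-5p (0.54), and for miR-21-3p it was miR-19a-5p (0.79), miR-142-3p (0.74), miR-155-5p (0.72), miR-21-5p (0.71) and miR-29b-3p (0.71). Within groups, after the group means were removed, the r between the strands was 0.74. The mean level of miR-19a-5p was 4.07 and that of miR-466b-4-3p 5.22 normalized RPM, so their values rest on few reads, and miR-466b-2-3p has the same counts as miR-466b-4-3p in all 48 libraries, so those reads cannot be assigned to either.

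In the 6 conditions where miR-21-3p was called higher, miR-19a-5p was called higher in 3, middle dose 7-d (1.25), high dose 7-d (1.51) and middle dose 28-d (0.84), and not at low dose 3-d (0.53), high dose 3-d (1.63) or low dose 7-d (0.47). miR-466b-4-3p was called higher in 4 of them, low dose 7-d (1.05), middle dose 7-d (1.45), high dose 7-d (1.82) and middle dose 28-d (1.02), and not at low dose 3-d (0.92) or high dose 3-d (1.63). It was also called higher at high dose 28-d (1.09), where miR-21-3p was not. The more abundant miR-142-3p and miR-29b-3p had means of 170 and 31.3 normalized RPM. miR-142-3p was called higher only at high dose 3-d (1.26), and miR-29b-3p only at high dose 3-d (1.27) and high dose 7-d (0.71). Over the 12 conditions, 12.1% of all tests were called higher. These miRNAs were picked by correlation over the same libraries, so shared calls are partly built in.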

How the data were processed

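Small RNA of rat liver was sequenced from 48 rats, and the authors deposited raw read counts for each mature miRNA and precursor. Per the methods of the study, adaptors were trimmed, reads of 18 to 25 bases were kept, and reads were mapped to miRBase release 21 and counted with miRDeep2. The submitters' processing notes name the build rn5. The counts were not normalized, filtered or pooled. Coordinates are given only from RefSeq on GRCr8.

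The members and the lists of miRNAs were chosen with earlier results of these data known. Where the table lists a mature miRNA under more than 1 precursor, the row with the highest total was used. The filter kept 301 of 664 miRNAs, those that reached 5 RPM in 3 or more of the 48 libraries. Each condition was compared with its time-matched controls in a fit of 6 libraries with the quasi-likelihood F-test of edgeR 4.0.16 in R 4.3.3 after upper quartile normalization. Standard errors are the size of the log2 fold change divided by the square root of F. With 3 rats against 3, an exact permutation test of a single value cannot go below a 2-sided p of 0.1. The strand ratio, log2 of (5p count + 0.5) over (3p count + 0.5), was fitted over 99 precursors and all 48 libraries with limma 3.58.1. The 24 contrasts used a fit of all 48 libraries in 16 groups, with adjustment over all miRNAs or precursors within a contrast. The smallest p that the permutations over 4 time points can give is 1.25e-05. The miRNAs named beside the members are the 5 with the highest Pearson r with each, with and without control 3-d replicate 1, and members of the lists by counts, with the largest changes where a result turns on them. The listed miRNAs at high dose 3-d and high dose 7-d and the miR-200 and miR-29 family members were named because they were called there, after their values were seen.

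Tried as alternatives were DESeq2 1.42.0 (its size factors and its Wald test), TMM normalization, library size alone, other filters, the exact test of edgeR, pooled controls, a single fit, other pseudocounts, separate fits of the ratio and each library left out. In counts simulated for low dose 7-d, the quasi-likelihood F-test called 42 of 46 miRNAs changed by a log2 of 1, 42 of 42 changed by a log2 of 2 and 6 of 198 unchanged, and the ratio fit called 7 of 20 precursors changed by a log2 of 1 and 1 of 79 unchanged. RNAfold 2.7.2 predicted the hairpin structure. A count of 3 was taken as the limit of detection, and both strands were above it in every library. Nothing in the labels names a batch, and rats are the replicates.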

Additional observations from a re-analysis of the deposited data

Results flagged for a closer look

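Of the 48 contrasts of the strands' treatment effects between doses or between time points, 24 for each strand, 7 differed between groups by a test of the difference itself (edgeR's quasi-likelihood F-test, adjusted over 301 miRNAs). For miR-21-3p the high dose effect at 3-d was above the middle dose effect by 1.74 and above the low dose effect by 1.28 on the log2 scale. The high dose effect on miR-21-3p differed by -2.31 between 14-d and 7-d and by -2.55 between 28-d and 3-d. For miR-21-5p the high minus low dose difference was -0.76 at 14-d, and the high dose effect differed by -1.27 between 14-d and 7-d and by -1.36 between 28-d and 3-d. The contrasts between 28-d and 3-d use control 3-d replicate 1, and without that library 6 contrasts of miR-21-3p and 3 of miR-21-5p were called. Groups of 3 rats are too small for a test of outlying samples.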

How the results depend on the processing

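The exact permutation tests over the 4 time points kept their calls under each scaling and without control 3-d replicate 1; the difference of miR-21-5p at middle dose, not called, turned from -0.02 to 0.11 when libraries were scaled by size alone. The number of conditions in which miR-21-3p was called was 6, fell to 3 with all 12 controls pooled and lay between 6 and 7 with each library left out. That of miR-21-5p was 4, fell to 2 with TMM normalization, DESeq2's size factors, library size alone or DESeq2's Wald test, to 1 without a filter and to 0 with pooled controls or adjusted p-values, and lay between 2 and 4 with each library left out. The strand ratio was called in 4 conditions, in 2 when all precursors with reads on both strands were fitted, and in 3 to 6 with each library left out. Of its 24 contrasts 0 were called, 1 with 1 or 0.1 added to each count, and 0 to 5 with each library left out. For miR-21-5p 3 contrasts were called, 1 without a filter and 1 to 4 with each library left out, and for miR-21-3p 4 and 2 to 6. Against upper quartile normalization, the other scalings moved the median log2 fold change of all miRNAs by -0.23 to 0.28.

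Values that changed sign were not called in either setting. At low dose 14-d, TMM normalization, DESeq2's size factors in edgeR, library size alone, no filter, the filter in every library and DESeq2's Wald test gave -0.081, -0.045, -0.063, -0.15, -0.12 and -0.045 for miR-21-5p and -0.11, -0.067, -0.073, -0.17, -0.13 and -0.067 for miR-21-3p. Library size alone gave 0.0027 and 0.096 for miR-21-5p at low and middle dose 28-d, and 0.050 and 0.050 for miR-21-3p at low dose 28-d and middle dose 14-d. Without a filter miR-21-3p was -0.022 at high dose 28-d. With pooled controls miR-21-5p was 0.15 at low dose 28-d, -0.26 at middle dose 3-d, -0.050 at middle dose 7-d and 0.13 at middle dose 28-d, miR-21-3p was 0.41, 0.31 and 0.0065 at low dose 28-d, middle dose 14-d and high dose 14-d, and the strand ratio was -0.16 at low dose 14-d. With each library left out, miR-21-3p lay between -0.15 and 0.25 at low dose 14-d, between -0.28 and 0.012 at middle dose 14-d and between -0.053 and 0.31 at high dose 28-d. The strand ratio lay between -0.13 and 0.17, -0.22 and 0.079, and -0.35 and 0.068 at low dose 14-d, low dose 28-d and high dose 14-d. The causes were not tested. No paired analysis was possible because every library has its own running number and no groups share one.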
